A study of Homo sapiens with 6 samples.

Results

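The genes described here encode subunits of the SWI/SNF (BAF) and ISWI chromatin remodelers, CHD remodelers, subunits of the NuRD complex, histone deacetylases and the corepressors that carry them. They were listed by name and role, with earlier results of these data known. The 50 gene symbols were matched to the 55765 rows of a table of FPKM values, and all 50 were found. FPKM counts fragments scaled to transcript length and to the number of fragments mapped in a library, so levels can be compared between genes per length. A gene was tested if its 6 libraries averaged 1 FPKM or more, and 46 of the 50 genes met this.

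Remodelers use the energy of ATP to slide, evict or space nucleosomes, and BAF complexes mostly open chromatin, whereas NuRD joins a CHD remodeler to histone deacetylases in a complex best known for repression. Histone deacetylases remove acetyl groups from histone tails and have little sequence preference of their own. They are brought to genes by corepressors such as SIN3, CoREST and NCOR. Loss of SMARCB1 defines rhabdoid tumors, which can arise in the kidney.

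The libraries came from SK-NEP-1, an established human cell line that the labels call a Wilms tumor line of kidney origin. In 3 libraries the cells had received a small interfering RNA (siRNA) against EHMT2, called siEHMT2, and 3 libraries were the controls, labelled siNC. EHMT2 (G9a) is a histone methyltransferase whose main mark is methylated lysine 9 of histone H3, tied to silent chromatin. All titles name the same line, while a separate cell line field carried a number that ran on from library to library, and the titles were followed. The labels give no time after siRNA treatment. They leave unsaid whether the replicates were separate cultures, so the p-values rest on a spread that may be technical.

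EHMT2 was at 7.61, 8.26 and 16.2 FPKM in the siEHMT2 libraries 1, 2 and 3, against 27.5, 27.2 and 22.7 FPKM in the siNC libraries 1, 2 and 3. The groups did not overlap, and siEHMT2 library 3 lay nearest to the controls. On the log2(FPKM + 1) scale used for every fold change here, EHMT2 was at −1.27 ± 0.24 (log2 fold change ± SE). The test was limma with Benjamini-Hochberg adjustment over all tested genes and a threshold of 0.05, and the adjusted p was 0.0609 (0.0163 without siEHMT2 library 3, where the log2 fold change was −1.58). In bulk libraries, fewer cells with a transcript and less of it per cell cannot be told apart. EHMT1, the partner methyltransferase, averaged 9.53 ± 0.306 FPKM in siEHMT2 and 8.29 ± 0.262 in siNC (SD, n = 3 each; log2 fold change 0.18 ± 0.09, limma adjusted p = 0.326).

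Markers of kidney epithelium were nearly absent: of 10 such genes, 6 were listed at 0 in every library and the highest value of any was 0.217 FPKM. Of 10 nephron progenitor and Wilms tumor genes, none exceeded 3.63 FPKM. SIX2 reached at most 0.234 FPKM and PAX2 0.119, while 4 of the 10 passed the filter. SALL1 averaged 2.92 FPKM in siEHMT2 and 2.14 in siNC, and EYA1 1.90 in siEHMT2 and 1.35 in siNC. CITED1 averaged 1.15 FPKM in siEHMT2 and 1.77 in siNC, and WT1 1.34 in siEHMT2 and 1.04 in siNC. Of 10 genes known from Ewing sarcoma 9 passed the filter, and NKX2-2 averaged 120 ± 16.0 FPKM in siEHMT2 and 126 ± 5.26 in siNC. The summed FPKM of these 10 genes ran from 675 to 817 in siEHMT2 and from 881 to 979 in siNC. Of the 9 tested, 4 were higher and 5 lower in siEHMT2, and CCND1 had by far the largest gap in mean FPKM. CCND1, the most abundant of them in siNC, was at 222 ± 10.1 FPKM in siEHMT2, against 374 ± 12.4 in siNC (−0.75 ± 0.10 on the log2(FPKM + 1) scale, limma adjusted p = 0.0287). It was the only 1 of the 9 that passed. The cells are therefore called SK-NEP-1 below and not by a tumor type. FPKM summed to between 244702 and 272271 per library, of which mitochondrially encoded transcripts took 19.03% to 23.59%. The number of reads behind a value is unknown.

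Across the 46 tested genes, no member passed the threshold. The smallest limma adjusted p was 0.110 and the largest 0.983. Over all 12859 tested genes limma called 71, or 0.552%. At an unadjusted p under 0.05 there were 8 members, or 17.4%, where 18.8% of all tested genes had such a p. Of these, 3 were higher in siEHMT2 (HDAC6, HDAC10 and GATAD2A; 10.7% of all tested genes) and 5 were lower (DPF3, RCOR1, SMARCD3, MBD2 and PHF10; 8.03% of all tested genes). The siEHMT2 and siNC libraries did not overlap for 11 members, or 23.9%, and for 26.3% of all tested genes. Of the 11 members, 5 were higher (14.6% of all tested genes) and 6 lower (11.7%). Both shares of members were near those of the transcriptome as a whole. In 3 of 20 alternative fits members passed, along with much of the transcriptome: 11 with array weights, where 29.5% of all tested genes were called, 7 with gene-by-gene array weights (22.8%) and 4 without both libraries numbered 3 (15%). These counts are out of 46 tested members, and the array weights of the fit that called 11 did not converge. RCOR1, DPF3, SMARCD3 and GATAD2A were called in all 3.

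The members split almost evenly by direction, with 22 fold changes above 0 and 24 below. Their median was −0.02, against 0.01 for all tested genes. They lay between −0.47 for DPF3 and 0.30 for HDAC6. The 95% confidence interval stayed within ±1 on the log2 scale for all 46 tested members and within ±0.5 for 34 of them, with DPF3 reaching lowest at −0.76 and CHD7 highest at 0.61. The median absolute fold change of the members was 0.13, and their median within-group SD was 0.15. For 21 members the difference between the groups exceeded their own within-group SD, as it did for 47.8% of all tested genes.

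**Figure D1:**
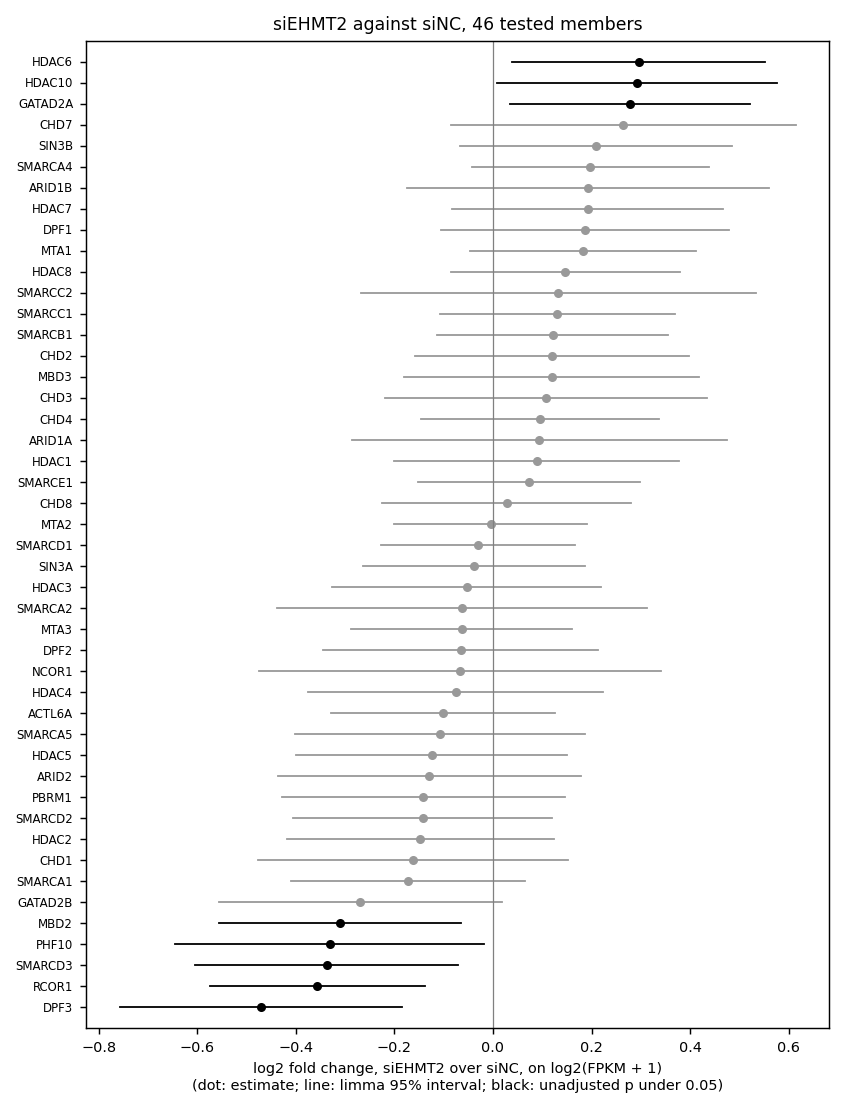
Log2 fold change of siEHMT2 over siNC on the log2(FPKM + 1) scale for the 46 tested members, with dots for the estimates and lines for the limma 95% confidence intervals (3 libraries per group). The 8 members in black have an unadjusted p under 0.05: 3 lie above 0 and 5 below, and no interval reaches ±1.

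By level, the set spanned a wide range. The chromodomain ATPase genes CHD3 and CHD4 averaged 64.0 and 53.3 FPKM over the 6 libraries, followed by MTA2 at 53.0, HDAC1 at 48.3 and SMARCB1 at 47.3. There were 4 members that stayed under the filter in their mean over all libraries and were not tested. HDAC11, the class IV deacetylase, averaged 0.636 FPKM in siEHMT2 and 0.602 in siNC. ACTL6B, the neuronal counterpart of ACTL6A, averaged 0.0901 FPKM in siEHMT2 and 0.122 in siNC, CHD5, a NuRD ATPase of neurons, 0.0608 in siEHMT2 and 0.0799 in siNC, and HDAC9, a class IIa deacetylase, 0.0212 in siEHMT2 and 0.0184 in siNC. SK-NEP-1 cells thus carried transcripts of CHD3 and CHD4 but hardly any of CHD5, and of ACTL6A but hardly any of ACTL6B.

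**Figure D2:**
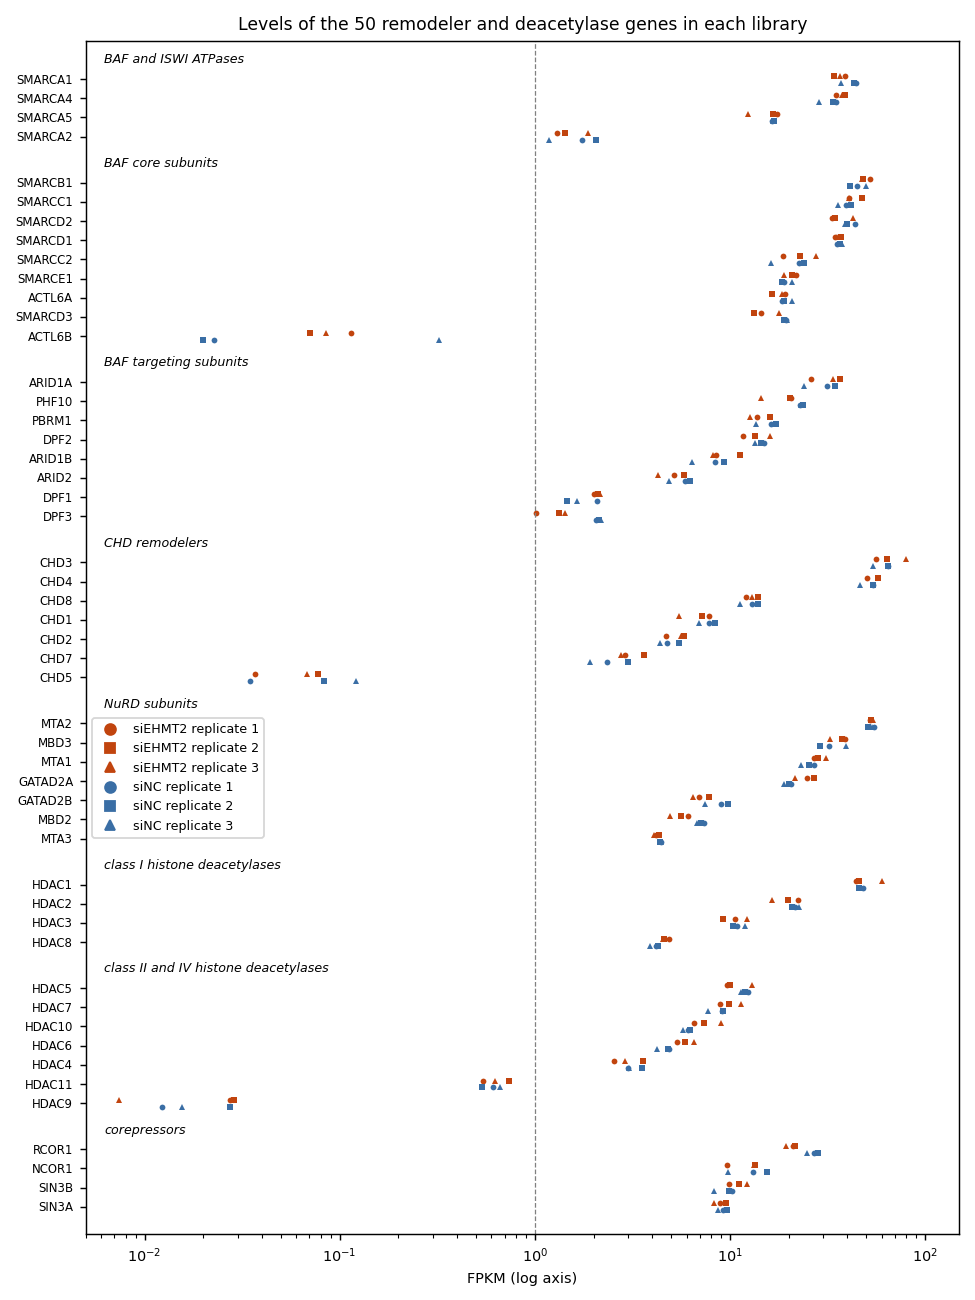
FPKM on a log axis of the 50 genes in each of the 6 libraries, with siEHMT2 libraries in red above siNC libraries in blue and genes grouped by role and ordered by level. The dashed line marks 1 FPKM, and HDAC11, ACTL6B, CHD5 and HDAC9 lie below it.

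Among the ATPases, SMARCA4 (BRG1), the main motor of BAF in most dividing cells, was at 34.9, 38.9 and 37.5 FPKM in the siEHMT2 libraries and at 34.8, 33.6 and 28.5 FPKM in the siNC libraries. The groups touched almost at their edges without overlapping, and the log2 fold change of 0.20 ± 0.11 did not pass (limma adjusted p = 0.349). Its paralog SMARCA2 (BRM) was far lower, at 1.54 ± 0.302 FPKM in siEHMT2 and 1.66 ± 0.451 in siNC. The ISWI motor gene SMARCA1 (SNF2L) averaged 36.7 ± 2.29 FPKM in siEHMT2 and 41.5 ± 3.88 in siNC, with a log2 fold change of −0.17 ± 0.10 (limma adjusted p = 0.408). SMARCA5 (SNF2H), the other ISWI motor gene, averaged 15.5 ± 2.68 FPKM in siEHMT2 and 16.6 ± 0.255 in siNC (−0.11 ± 0.13, limma adjusted p = 0.693). Of the 4 ATPase genes 1 was higher and 3 were lower, and all 4 intervals lay within ±0.5.

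Of the 8 tested BAF core genes, 7 had an unadjusted p above 0.05. SMARCB1 averaged 49.3 ± 2.49 FPKM in siEHMT2 and 45.3 ± 4.48 in siNC, so the gene lost in rhabdoid tumors was among the most abundant of the set in these cells. In the annotation used here, 55.1% of the SMARCB1 exon bases are overlapped on the opposite strand by DERL3, and since no strand setting is given, reads of these genes cannot be told apart there. The scaffold gene SMARCC1 averaged 42.9 ± 3.81 FPKM in siEHMT2 and 39.0 ± 3.00 in siNC, with a log2 fold change of 0.13 ± 0.10 (limma adjusted p = 0.537). SMARCC2, its paralog, was at 18.6, 22.8 and 27.6 FPKM in the siEHMT2 libraries and at 22.5, 24.0 and 16.3 FPKM in the siNC libraries, with a spread inside each group larger than the gap between the groups.

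The 3 SMARCD genes encode alternative subunits of which a BAF complex takes 1 kind. SMARCD3 (BAF60c), the form known from mouse heart and muscle, was at 14.5, 13.3 and 17.8 FPKM in the siEHMT2 libraries and at 19.4, 19.0 and 19.7 FPKM in the siNC libraries. All 3 siEHMT2 values were under the lowest control, with library 3 closest to it. The log2 fold change of −0.34 ± 0.12 had an unadjusted p of 0.0188 and a limma adjusted p of 0.179. SMARCD2 averaged 36.9 ± 4.98 FPKM in siEHMT2 and 40.6 ± 2.59 in siNC (−0.14 ± 0.12, limma adjusted p = 0.542). SMARCD1 averaged 35.8 ± 1.37 FPKM in siEHMT2 and 36.5 ± 1.04 in siNC. SMARCE1 averaged 20.5 ± 1.5 FPKM in siEHMT2 and 19.5 ± 1.25 in siNC, and ACTL6A 18.0 ± 1.37 in siEHMT2 and 19.4 ± 1.24 in siNC. SMARCD3 was thus the only core subunit of the 8 tested with an unadjusted p under 0.05 (12.5%, beside 18.8% of all tested genes).

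Among the 8 subunits that set BAF apart into its forms, 2 had an unadjusted p under 0.05 (25%, beside 18.8% of all tested genes), both lower. DPF3, a PHD finger subunit that binds modified histones, was at 1.02, 1.34 and 1.43 FPKM in the siEHMT2 libraries, against 2.06, 2.13 and 2.18 FPKM in the siNC libraries. The 3 siNC values lay close together and all above the siEHMT2 values, at a low level in both groups. The mean was 1.26 ± 0.215 FPKM in siEHMT2 and 2.12 ± 0.0626 in siNC, a ratio of 0.593, and the log2 fold change was −0.47 ± 0.13, with a limma adjusted p of 0.110. The added 1 FPKM makes this fold change smaller than the ratio of the means. Its paralog DPF1, a form known from neurons, averaged 2.09 ± 0.0831 FPKM in siEHMT2 and 1.73 ± 0.314 in siNC (0.19 ± 0.13, limma adjusted p = 0.468), and DPF2, the widely used form, averaged 13.7 ± 2.16 FPKM in siEHMT2 and 14.3 ± 0.758 in siNC.

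PHF10 (BAF45a), a PHD finger subunit of the PBAF form, was at 20.6, 20.4 and 14.5 FPKM in the siEHMT2 libraries and at 22.8, 23.7 and 23.1 FPKM in the siNC libraries. The groups did not overlap, and siEHMT2 library 3 lay far below the other 5 libraries. The log2 fold change was −0.33 ± 0.14 (unadjusted p = 0.0403, limma adjusted p = 0.244) and −0.17 without that library. The other PBAF genes overlapped between the groups: PBRM1 averaged 14.1 ± 1.75 FPKM in siEHMT2 and 15.7 ± 1.87 in siNC, and ARID2 5.09 ± 0.773 in siEHMT2 and 5.65 ± 0.712 in siNC. ARID1A and ARID1B carry DNA-binding ARID domains in the canonical form. ARID1A averaged 32.1 ± 5.51 FPKM in siEHMT2 and 30.0 ± 5.49 in siNC, and ARID1B 9.31 ± 1.71 in siEHMT2 and 8.03 ± 1.5 in siNC.

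No CHD gene had an unadjusted p under 0.05 or groups that did not overlap. CHD7, mutated in CHARGE syndrome, averaged 3.10 ± 0.480 FPKM in siEHMT2 and 2.43 ± 0.555 in siNC (0.26 ± 0.15, limma adjusted p = 0.386). CHD1, which binds methylated lysine 4 of histone H3, averaged 6.84 ± 1.21 FPKM in siEHMT2 and 7.73 ± 0.741 in siNC (−0.16 ± 0.14, limma adjusted p = 0.560), and CHD2 5.39 ± 0.592 in siEHMT2 and 4.88 ± 0.556 in siNC (0.12 ± 0.12, limma adjusted p = 0.636). The 95% intervals of all 3 included 0. CHD1 was at −0.03 without siEHMT2 library 3, CHD2 at 0.06 without siNC library 3 and CHD7 at 0.15 without siNC library 3. CHD8 averaged 13.0 ± 0.954 FPKM in siEHMT2 and 12.7 ± 1.37 in siNC. The NuRD motors CHD3 and CHD4 averaged 66.7 ± 12.4 and 55.1 ± 3.95 FPKM in siEHMT2 and 61.3 ± 5.96 and 51.5 ± 4.63 FPKM in siNC. CHD4 values are uncertain, because 86.0% of its exon bases are shared on the same strand with a second annotated gene, AC006064.6.

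NuRD was the role group with the largest share of members whose groups did not overlap, 3 of 7 (42.9%), with 26.3% of all tested genes beside it, and the 3 did not share a direction. MBD2, the NuRD subunit that binds methylated DNA, was at 6.09, 5.62 and 4.95 FPKM in the siEHMT2 libraries and at 7.38, 7.11 and 6.82 FPKM in the siNC libraries. All siEHMT2 values lay below all siNC values, with a log2 fold change of −0.31 ± 0.11 (unadjusted p = 0.0188, limma adjusted p = 0.179). GATAD2A (p66 alpha), which joins the MBD subunit to the CHD motor, was at 24.8, 27.0 and 21.5 FPKM in the siEHMT2 libraries and at 20.6, 20.1 and 19.0 FPKM in the siNC libraries. All siEHMT2 values lay above all siNC values, with a log2 fold change of 0.28 ± 0.11 (unadjusted p = 0.0299, limma adjusted p = 0.215). Its paralog GATAD2B (p66 beta) was at 6.97, 7.81 and 6.44 FPKM in the siEHMT2 libraries and at 9.01, 9.83 and 7.43 FPKM in the siNC libraries. Its groups overlapped in siEHMT2 library 2 and siNC library 3, with a log2 fold change of −0.27 ± 0.13 (limma adjusted p = 0.292).

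The other NuRD genes lay closer together. MTA3 averaged 4.20 ± 0.125 FPKM in siEHMT2 and 4.43 ± 0.0257 in siNC, a gap that separated the libraries but came to a log2 fold change of only −0.06. MTA2 averaged 52.9 ± 1.04 FPKM in siEHMT2 and 53.1 ± 1.88 in siNC, and MTA1 28.7 ± 2.12 in siEHMT2 and 25.2 ± 1.89 in siNC. MBD3, the subunit that takes the place of MBD2, averaged 36.3 ± 3.38 FPKM in siEHMT2 and 33.5 ± 5.37 in siNC.

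Among the class I deacetylases, HDAC1 and HDAC2 are the catalytic pair of NuRD, SIN3 and CoREST. HDAC1 was at 44.2, 45.7 and 60.4 FPKM in the siEHMT2 libraries and at 47.9, 45.7 and 46.2 FPKM in the siNC libraries. Only siEHMT2 library 3 lay above the controls, and the log2 fold change of 0.09 ± 0.13 (limma adjusted p = 0.746) was −0.05 without it. HDAC2 was at 22.2, 19.9 and 16.5 FPKM in the siEHMT2 libraries and at 21.4, 20.8 and 22.5 FPKM in the siNC libraries (−0.15 ± 0.12, limma adjusted p = 0.539), and its fold change was −0.04 without siEHMT2 library 3. The same library thus held the most HDAC1 and the least HDAC2 of the 6. HDAC8, which acts on cohesin, averaged 4.67 ± 0.204 FPKM in siEHMT2 and 4.12 ± 0.187 in siNC, and its groups did not overlap (0.15 ± 0.10, limma adjusted p = 0.468). HDAC3, the enzyme of the NCOR complex, averaged 10.7 ± 1.49 FPKM in siEHMT2 and 11.1 ± 0.827 in siNC.

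Both members of class IIb, HDAC6 and HDAC10, were among those higher in siEHMT2 with an unadjusted p under 0.05, 2 of the 5 tested genes of classes II and IV (40%, beside 18.8% of all tested genes). HDAC6, a mainly cytoplasmic enzyme that deacetylates tubulin, was at 5.36, 5.90 and 6.53 FPKM in the siEHMT2 libraries and at 4.88, 4.80 and 4.24 FPKM in the siNC libraries. HDAC10, known as a polyamine deacetylase, was at 6.55, 7.37 and 9.03 FPKM in the siEHMT2 libraries and at 6.10, 6.21 and 5.74 FPKM in the siNC libraries. In both genes the groups did not overlap, and siEHMT2 library 3 was the highest and siNC library 3 the lowest of the 6. The log2 fold changes were 0.30 ± 0.11 for HDAC6 (unadjusted p = 0.0287, limma adjusted p = 0.211) and 0.29 ± 0.12 for HDAC10 (unadjusted p = 0.0451, limma adjusted p = 0.254). Without siEHMT2 library 3, HDAC6 was at 0.23 (unadjusted p = 0.0602) and HDAC10 at 0.18 (unadjusted p = 0.105). The class IIa genes, whose products shuttle between nucleus and cytoplasm, had no unadjusted p under 0.05. HDAC7 averaged 10.05 ± 1.24 FPKM in siEHMT2 and 8.65 ± 0.846 in siNC (0.19 ± 0.12, limma adjusted p = 0.426), HDAC5 10.9 ± 1.76 in siEHMT2 and 11.9 ± 0.431 in siNC, and HDAC4 3.01 ± 0.517 in siEHMT2 and 3.21 ± 0.296 in siNC.

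Of the corepressors, RCOR1 (CoREST), which ties HDAC1 and HDAC2 to the demethylase KDM1A, was at 21.0, 21.5 and 19.3 FPKM in the siEHMT2 libraries and at 27.1, 28.2 and 24.7 FPKM in the siNC libraries. The highest siEHMT2 value lay well under the lowest siNC value. The mean was 20.6 ± 1.12 FPKM in siEHMT2 and 26.7 ± 1.77 in siNC, and the log2 fold change was −0.36 ± 0.10 (unadjusted p = 0.00521, limma adjusted p = 0.111). SIN3B averaged 11.1 ± 1.23 FPKM in siEHMT2 and 9.46 ± 1.06 in siNC (0.21 ± 0.12, limma adjusted p = 0.387), and SIN3A, the other SIN3 scaffold, 8.92 ± 0.604 in siEHMT2 and 9.18 ± 0.445 in siNC (−0.04 ± 0.10, limma adjusted p = 0.870). NCOR1 averaged 12.1 ± 2.11 FPKM in siEHMT2 and 12.8 ± 2.87 in siNC. RCOR1 was thus the only corepressor gene of the 4 with an unadjusted p under 0.05 (25%, beside 18.8% of all tested genes).

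**Figure D3:**
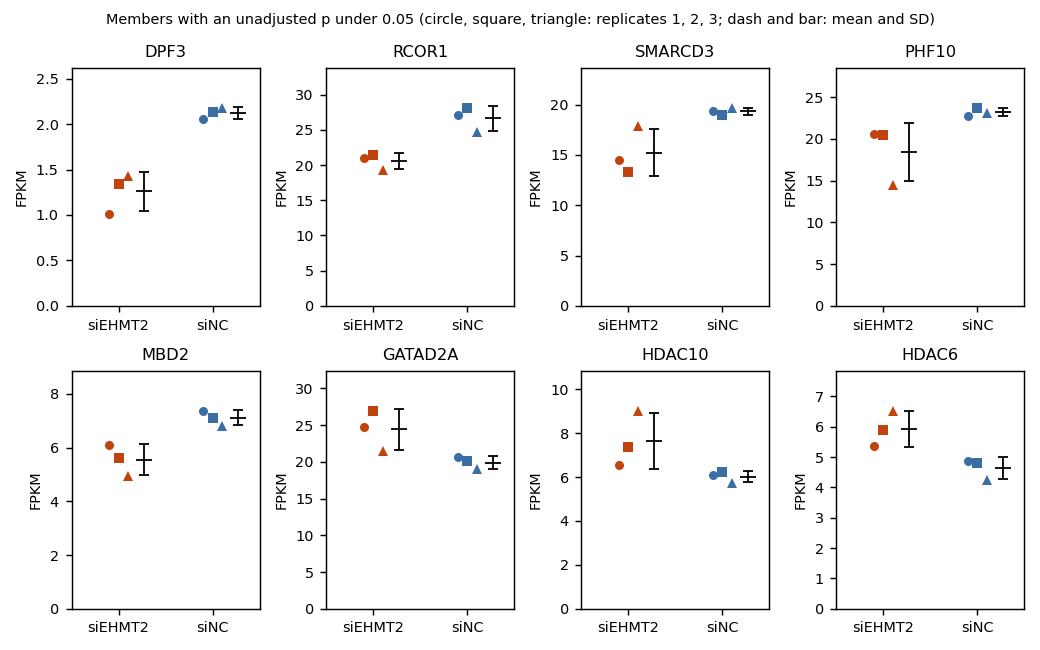
FPKM per library (y axis from 0) for the 8 members with an unadjusted p under 0.05, with siEHMT2 at left and siNC at right; circle, square and triangle are replicates 1, 2 and 3, and the dash and bar are the mean and SD (n = 3). The groups do not overlap in any of the 8 panels, and none of the 8 genes passed the limma adjusted threshold.

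The balance between paralogs that compete for a place in the same complex was compared within each library. The shares do not depend on how libraries are scaled, and the log2 ratios do so only through the added 1 FPKM. For each of 10 pairs the difference in the log2 ratio of FPKM + 1 was tested by an exact two-sided permutation test over the libraries, which cannot give a p under 0.1 with 3 against 3. No pair could therefore pass, and the smallest Benjamini-Hochberg adjusted p was 0.333. The groups did not overlap for 3 of the 10 pairs (30%), those of MBD, GATAD2 and MTA genes, all of NuRD. The pairs CHD3 with CHD4 and HDAC1 with HDAC2, whose products also act in NuRD, did overlap (differences in log2 ratio 0.013 for CHD3/CHD4 and −0.24 for HDAC2/HDAC1). Such a share was not computed for ratios of other gene pairs, and the 26.3% of all tested genes counts single genes. MBD2 made up 13.5%, 13.0% and 13.2% of the summed FPKM of MBD2 and MBD3 in the siEHMT2 libraries, against 18.6%, 19.8% and 14.8% in the siNC libraries (difference in log2 ratio −0.43, exact permutation p = 0.1). GATAD2B made up 21.9%, 22.4% and 23.1% of GATAD2A and GATAD2B in the siEHMT2 libraries, against 30.4%, 32.9% and 28.1% in the siNC libraries (−0.55, exact permutation p = 0.1). Within the siEHMT2 group both shares varied less than in siNC.

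For the third such pair, MTA2 made up 66.0%, 65.0% and 63.5% of MTA1 and MTA2 in the siEHMT2 libraries, against 67.0%, 66.8% and 69.7% in the siNC libraries (−0.19, exact permutation p = 0.1). Transcript GC was 45.8% for MBD2 and 66.8% for MBD3, and 50.4% for GATAD2B and 56.8% for GATAD2A. It was 52.5% for MTA2 and 61.3% for MTA1. With each library corrected for GC, log2 fold changes were −0.28 for MBD2 and 0.01 for MBD3. They were −0.30 for GATAD2B, 0.18 for GATAD2A, −0.06 for MTA2 and 0.08 for MTA1. A part of GC in these ratios was not tested. The other 7 pairs overlapped. SMARCA2 held 3.97 ± 0.690% of the SMARCA2 and SMARCA4 sum in siEHMT2 and 4.85 ± 0.919% in siNC, ARID1B 22.6 ± 2.80% of the ARID1 sum in siEHMT2 and 21.1 ± 0.0791% in siNC, and CHD3 54.5 ± 3.30% of the CHD3 and CHD4 sum in siEHMT2 and 54.3 ± 0.208% in siNC. SMARCA1 held 70.4 ± 3.85% of the ISWI sum in siEHMT2 and 71.3 ± 2.02% in siNC, and SMARCC2 34.8 ± 4.82% of the SMARCC sum in siEHMT2 and 34.7 ± 2.94% in siNC. For HDAC2 the share of the HDAC1 and HDAC2 sum was 28.4 ± 6.23% in siEHMT2 and 31.7 ± 0.998% in siNC, and for SIN3B the share of the SIN3 sum was 55.3 ± 3.84% in siEHMT2 and 50.7 ± 1.98% in siNC. In 6 of these 7 pairs, all except SMARCA2, siEHMT2 library 3 held a share outside the range of the other 5 libraries.

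**Figure D4:**
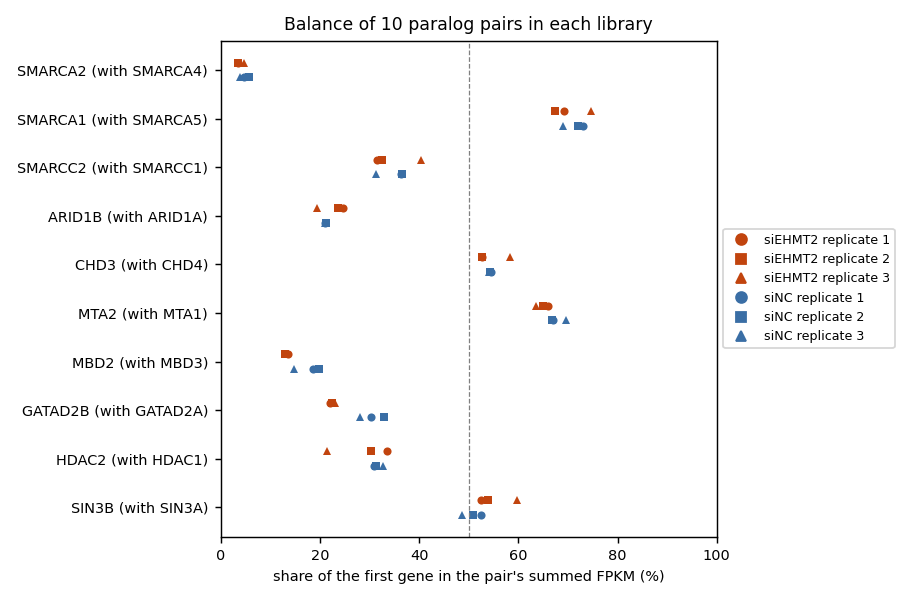
Share (%) of the first gene in the summed FPKM of each of 10 paralog pairs, with 3 siEHMT2 libraries in red above 3 siNC libraries in blue. The groups separate for MBD2, GATAD2B and MTA2, where siEHMT2 libraries lie to the left of siNC libraries.

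Members, like the tested genes as a whole, did not vary independently between libraries. ARID1A was at 25.9, 36.5 and 33.9 FPKM in the siEHMT2 libraries and at 31.4, 34.7 and 24.0 FPKM in the siNC libraries, and NCOR1 at 9.66, 13.4 and 13.2 FPKM in the siEHMT2 libraries and at 13.2, 15.4 and 9.75 FPKM in the siNC libraries. In both genes, and in SMARCC2, siEHMT2 library 1 and siNC library 3 were the lowest 2 of the 6. In these libraries 13 and 17 of the 46 tested members lay above their own mean over the 6 libraries, against 29 and 25 in siEHMT2 libraries 2 and 3 and 30 and 31 in siNC libraries 1 and 2. The libraries with few members above the mean were thus 1 from each group. Deviations from the group means correlated between these libraries at 0.56 over members and at 0.48 over all tested genes. Each was the largest such r of the 9 library pairs across the groups, and this correlation was thus not particular to the members. The median deviation of members from their own means was −0.041 in siEHMT2 library 1 and −0.069 in siNC library 3. Over all tested genes it was 0.0022 and −0.0081 in these libraries, so the lower level of members was not seen to that extent there.

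Fold changes of the members also moved with the GC content of their transcripts. Across the 46 tested members, whose median transcript GC ran from 37.3% to 66.8%, the Spearman correlation of fold change with GC was 0.523, and across the 11223 tested genes with a GC value it was 0.387. Genes are not independent replicates, and all share the same 6 libraries, so these are descriptions without a p. By library, the deviation of the members from their own means correlated with GC at −0.13, 0.23 and 0.63 in siEHMT2 libraries 1, 2 and 3 and at −0.34, −0.53 and −0.21 in siNC libraries 1, 2 and 3. Among the 8 members with an unadjusted p under 0.05, the 3 higher ones had a transcript GC of 65.5% (HDAC10), 57.1% (HDAC6) and 56.8% (GATAD2A). The 5 lower ones ran from 40.5% (PHF10), 42.9% (RCOR1) and 45.8% (MBD2) over 50.9% (DPF3) to 58.3% (SMARCD3), so SMARCD3 was richer in GC than HDAC6 and yet lower in siEHMT2.

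After each library was corrected for GC content, which left a correlation of 0.158 among the members, no member passed and 8 again had an unadjusted p under 0.05, a share of 17.4% beside 18% of all genes in that fit. All 8 were lower in siEHMT2 (9.09% of all genes): DPF3, RCOR1, SMARCD3, MBD2 and PHF10 as before, now with GATAD2B, SMARCD2 and HDAC5. HDAC6 was at 0.20 (unadjusted p = 0.0524), HDAC10 at 0.19 (unadjusted p = 0.0846) and GATAD2A at 0.18 (unadjusted p = 0.154). Of the 5 lower members, DPF3 was at −0.51 and SMARCD3 at −0.44, both larger in size than before the correction, with limma adjusted p of 0.0673 and 0.0722. RCOR1 at −0.28, MBD2 at −0.28 and PHF10 at −0.23 were smaller in size than before. The 3 members that were higher before the correction thus no longer had an unadjusted p under 0.05, and the 5 lower members did. When the libraries were rescaled to the same sum, 5 members, all lower, had such a p, with 17.9% of all tested genes beside it (10% lower). There HDAC6 was at 0.25 (unadjusted p = 0.0583), HDAC10 at 0.25 (unadjusted p = 0.0706) and GATAD2A at 0.23 (unadjusted p = 0.0913), close to their values without rescaling.

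**Figure D5:**
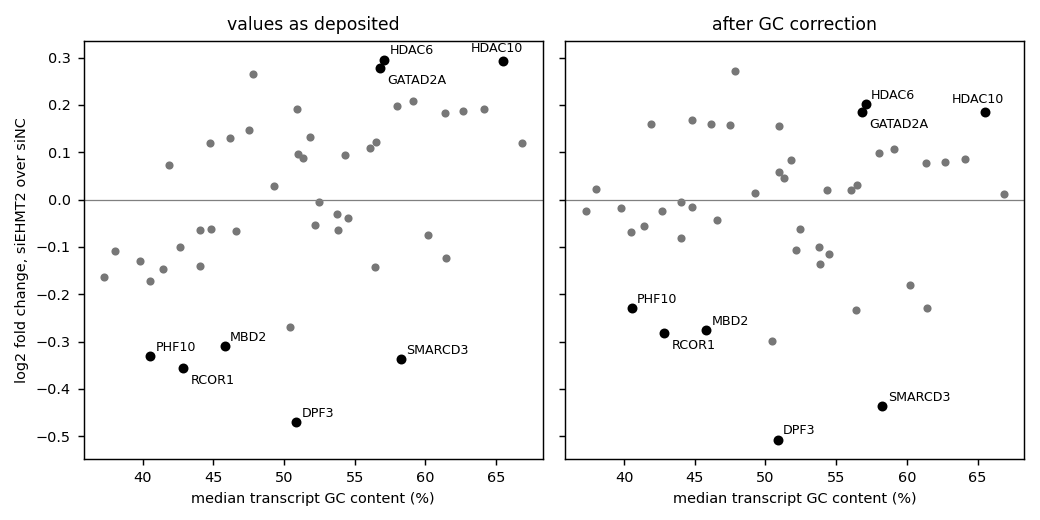
Log2 fold change of siEHMT2 over siNC (y axis) against median transcript GC content in percent (x axis) for the 46 tested members, before correction at left and after a GC correction of each library at right. The Spearman correlation was 0.523 before and 0.158 after, and the 8 named genes are those with an unadjusted p under 0.05 before it.

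Other genes of the same machinery, 76 partner genes in 8 lists, were read from the same fit. Of the 75 tested, none passed. At an unadjusted p under 0.05 there were 8, or 10.7%, with 5 higher and 3 lower, and the groups did not overlap for 16, or 21.3%, each below the 18.8% and 26.3% of all tested genes. The median fold change of the partners was −0.02.

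Of the 11 other BAF subunits tested, 3 had an unadjusted p under 0.05 (27.3%, beside 18.8% of all tested genes), 2 higher and 1 lower. BCL11B, a zinc finger transcription factor found in BAF and also in the Ewing sarcoma list above, was at 15.2, 19.1 and 13.4 FPKM in the siEHMT2 libraries, against 24.6, 23.8 and 24.5 FPKM in the siNC libraries. The controls lay close together and above every siEHMT2 library, with a log2 fold change of −0.60 ± 0.13 (limma adjusted p = 0.0727). BCL7C averaged 7.19 ± 0.732 FPKM in siEHMT2 and 4.6 ± 0.538 in siNC (0.55 ± 0.12, limma adjusted p = 0.0741), and its relative BCL7A 11.0 ± 0.601 in siEHMT2 and 8.59 ± 0.722 in siNC (0.33 ± 0.10, limma adjusted p = 0.148). BCL7A and BCL7C were named after their values were seen.

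In NuRD, CDK2AP2 was at 13.9, 13.4 and 15.1 FPKM in the siEHMT2 libraries and at 21.1, 19.9 and 21.6 FPKM in the siNC libraries. It had the smallest p of all members and partners, at a log2 fold change of −0.53 ± 0.09 and a limma adjusted p of 0.0524. It was the only 1 of the 6 other NuRD genes with an unadjusted p under 0.05 (16.7%, beside 18.8% of all tested genes). Its paralog CDK2AP1 averaged 43.4 ± 3.17 FPKM in siEHMT2 and 43.8 ± 2.13 in siNC.

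Around SIN3, 2 of 10 genes had an unadjusted p under 0.05, both higher, a share of 20% near the 18.8% of all tested genes. SAP18 averaged 42.2 ± 1.89 FPKM in siEHMT2 and 31.4 ± 3.17 in siNC (0.42 ± 0.10, limma adjusted p = 0.0959), and BRMS1, named after its values were seen, 26.8 ± 1.05 in siEHMT2 and 20.5 ± 4.5 in siNC (0.40 ± 0.15, limma adjusted p = 0.205). None of the 10 other CoREST and NCOR genes had such a p. The partners and relatives of RCOR1, also named after their values were seen, gave no common direction: KDM1A averaged 69.4 ± 6.01 FPKM in siEHMT2 and 68.4 ± 1.15 in siNC, RCOR2 14.4 ± 2.53 in siEHMT2 and 12.0 ± 2.00 in siNC, and RCOR3 3.47 ± 0.573 in siEHMT2 and 4.12 ± 0.227 in siNC.

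The 12 other ISWI and CHD genes had no unadjusted p under 0.05 and no groups without overlap, and POLE3, a histone-fold subunit, averaged 54.8 ± 2.32 FPKM in siEHMT2 and 64.4 ± 11.9 in siNC (−0.22 ± 0.13, limma adjusted p = 0.413). The POLE3 fold change was −0.07 without siNC library 3, which held 77.9 FPKM. The 9 INO80 and SRCAP genes had none at an unadjusted p under 0.05 either. RUVBL2, an AAA ATPase of these complexes, averaged 32.9 ± 3.31 FPKM in siEHMT2 and 28.5 ± 1.93 in siNC (0.20 ± 0.11, limma adjusted p = 0.344). Of the 7 sirtuins, deacetylases that use NAD, 1 was higher and 1 lower at an unadjusted p under 0.05 (28.6%, beside 18.8% of all tested genes). SIRT3, the main mitochondrial enzyme, averaged 3.86 ± 0.633 FPKM in siEHMT2 and 2.80 ± 0.0888 in siNC (0.35 ± 0.12, limma adjusted p = 0.192). Of the 10 acetyltransferases, which oppose the deacetylases, none had such a p. KAT2A (GCN5) averaged 43.1 ± 3.81 FPKM in siEHMT2 and 37.4 ± 1.06 in siNC (0.20 ± 0.10, limma adjusted p = 0.308).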

How the data were processed

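The 3 siEHMT2 and 3 siNC libraries were grouped by title. The authors deposited FPKM per gene and library, per the file header. The labels' protocols name total RNA input and the NEBNext Ultra RNA kit. Per the submitters' processing notes, the build was hg19 and the tools were HISAT2 2.2.1, StringTie 2.2.0, SAMtools 1.4.1 and fastp, without roles. Annotation, strand and the rule that combines transcripts into genes are not given in the sources used here.

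Here, limma 3.58.1 (R 4.3.3; two-sided, mean-variance trend, no covariates) was fitted to log2(FPKM + 1) of the 12859 rows that averaged 1 FPKM or more. Benjamini-Hochberg adjustment ran over all of them, with 0.05 as threshold. The pseudocount understates changes of low genes. This fit was first run on simulated data with noise drawn independently for each gene and library. Shifts that genes share within a library were left out of it. FPKM are not counts, so no count model was used.

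The members and gene lists were chosen with earlier results of these data known. Genes given with tests are EHMT2, EHMT1, the 3 smallest p of each of 8 role groups and the smallest p of each partner list (that of the CoREST and NCOR list is not reported here); those named for an unadjusted p under 0.05, and exceptions marked in the text, were chosen after their values were seen. Fibroblast and blood markers were at most 1.37 FPKM except THY1 (24.3 ± 2.06 in siEHMT2, 25.4 ± 3.05 in siNC). Of 13 tested stress genes none passed in limma and 3 had an unadjusted p under 0.05 (23.1%, beside 18.8% of all tested genes). GC content (median transcript) and overlaps came from GENCODE release 29, on another build, so no coordinates are given; the GC correction was a loess per library (span 0.5). No promoter or protein sequence is shown. Figures used Python 3.11.15 and matplotlib 3.10.9.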

Additional observations from a re-analysis of the deposited data

How the results depend on the processing

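Of 20 alternatives, 17 left 0 members called. The other 3 called 11 with array weights (29.5% of all tested genes), 7 with gene-by-gene array weights (22.8%) and 4 without both libraries numbered 3 (15%). RCOR1, SMARCD3, DPF3 and GATAD2A were in all 3. The weights were lowest for siEHMT2 library 3 (0.276) and siNC library 3 (0.376), and the first kind did not converge. RCOR1 had an unadjusted p under 0.05 in 20 of 20 alternatives and DPF3 in 19 of 19, MBD2 in 18, SMARCD3 in 17, PHF10 in 12, GATAD2A in 11, HDAC6 in 9 and HDAC10 in 7 of 20, all 8 keeping direction. Gene-by-gene weights, and the GC correction of the paralog ratios, were chosen after seeing the data; the other settings were set with earlier results known.

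Genes called over all tested genes numbered 10 without the filter, 134 at a mean of at least 5 FPKM, 31 rescaled to the same sum, 30 without the trend, 3797 and 2936 with the 2 kinds of weights, 1928 without both libraries numbered 3 and 0 to 174 without 1 library (174 without siEHMT2 library 3, at most 6 without any other). Deviations of libraries that share replicate number 1, 2 or 3 correlated at −0.35, 0.087 and −0.39 over all tested genes. Over members r was −0.42, 0.54 and −0.17, and 3 libraries a group cannot settle whether the numbers mark pairs. With the replicate block, with or without GC correction, limma called 0 genes and 0 members. In the block fit without that correction, 1845 genes had a limma unadjusted p under 0.05. Partner genes called numbered 1 (CDK2AP2) at 5 FPKM, rescaled without mitochondrial genes or GC corrected, 13 and 10 with weights, 9 without both libraries numbered 3, and 0 to 1 without 1 library. EHMT2 passed at 5 FPKM (−1.27), with weights (−1.56 and −1.55), GC corrected (−1.37), without both libraries numbered 3 (−1.67) and without siEHMT2 replicate 3 (−1.58); without any 1 library it was −1.58 to −1.08.

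Fold changes near 0 took the other sign, and the cause was not tested: HDAC1 with weights (−0.027 and −0.025) and without both libraries numbered 3 (−0.057), with −0.051 to 0.17 without 1 library; SIN3A with array weights (0.013), with −0.081 to 0.0066 without 1 library; and SMARCA5 with GC correction, alone or with the block (0.023), and without both libraries numbered 3 (0.032), with −0.19 to 0.033 without 1 library. So did the paralog ratios SMARCC2/SMARCC1 (−0.27 without both libraries numbered 3, −0.076 GC corrected, −0.17 to 0.10 without 1 library), CHD3/CHD4 (−0.10, −0.038, −0.097 to 0.069), HDAC2/HDAC1 (0.050 without both libraries numbered 3, −0.41 to 0.014 without 1 library) and SMARCA1/SMARCA5 (−0.21 to 0.037 without 1 library). Over all 46 tested members, 15 took the other sign in at least 1 alternative, all with a reported fold change of at most 0.13 in size: SMARCA2, SMARCA5, SMARCC2, SMARCD1, ARID1A, DPF2, CHD3, CHD4, CHD8, MTA2, HDAC1, HDAC3, HDAC4, SIN3A and NCOR1. Depth is unknown, and 3 libraries a group limit what could be called.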
